A study of Mus musculus with 39 samples.

Results

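The genes described here are the 3 D-type cyclins (Ccnd1, Ccnd2 and Ccnd3), the kinases they activate (Cdk4 and Cdk6), the CDK inhibitors p21 (Cdkn1a) and p27 (Cdkn1b), and 2 genes used as markers of dividing cells (Mki67 and Top2a). They are 9 of 55487 gene identifiers in the deposited table, found by symbol in GENCODE M21, and all 9 passed the filter on low counts that left 13420 genes. They were picked for their levels, in CPM (the level once every library is scaled to the same total), over the same 8 groups of libraries that are described here. Their levels and differences are therefore a description and carry no test. Where a call at a p-value threshold is named for them, it describes how the fit came out and is not a test of these genes.

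The RNA came from microglia, the resident macrophages of the brain, of male mice 8 to 10 weeks old. The striatum, without its meninges, was dissociated with papain, and the sort kept live CD11b+ P2RY12+ cells with low CD45. The mice had received an intraperitoneal injection of lipopolysaccharide (LPS, a bacterial cell wall component; 4500 endotoxin units per gram) or saline 18 hours earlier. The groups cross that injection with a prenatal term, CON (control) or MIA (maternal immune activation), and an arm term, either CON or PLX. What PLX stands for is not defined by the labels. An arm is written as prenatal term, colon, arm term, so MIA:CON is prenatal MIA without PLX. There were 4 libraries of each saline group except MIA:PLX, which had 3, and 6 of each LPS group except CON:CON, which had 4. The labels do not say which agent induced MIA or whether animals were pooled.

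D-type cyclins are made in response to growth factors and bind CDK4 or CDK6, which phosphorylate the retinoblastoma protein and so free E2F factors to start DNA synthesis. p21 and p27 bind these complexes and, above all, inhibit CDK2, and p21 is a classic target of p53. Ki-67 coats mitotic chromosomes and topoisomerase II alpha (Top2a) untangles DNA, and both are made mainly by cycling cells. Adult microglia divide slowly in the undisturbed brain.

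The promoters of these genes carry different regulatory letters, shown here for Cdkn1a, which stood higher after LPS in every arm, for the markers of division Mki67 and Top2a, and for the kinase gene Cdk4. RefSeq start sites (GRCm38.p6) were available for 7 of the 9 genes, which had 9 entries; Ccnd1 and Ccnd2 are named only. Each line gives the 250 bases before the start, 5′ to 3′ on the gene's own strand. Capitals mark the CHR (TTTGAA) and the CCAAT box in Mki67 (chr7:135716380-135716629, minus strand) and Top2a (chr11:99024190-99024439, minus strand). They mark a p53 site before the first Cdkn1a start (chr17:29090729-29090978, plus strand) and the E-box (CACGTG), bound by Myc and other factors, in Cdk4 (chr10:127063285-127063534, plus strand). Motifs were searched on both strands.
Mki67: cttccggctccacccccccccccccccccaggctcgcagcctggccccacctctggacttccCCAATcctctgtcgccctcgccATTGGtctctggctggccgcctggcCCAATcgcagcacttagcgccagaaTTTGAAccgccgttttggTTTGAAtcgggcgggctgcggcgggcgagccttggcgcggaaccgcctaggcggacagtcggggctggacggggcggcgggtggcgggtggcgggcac
Top2a: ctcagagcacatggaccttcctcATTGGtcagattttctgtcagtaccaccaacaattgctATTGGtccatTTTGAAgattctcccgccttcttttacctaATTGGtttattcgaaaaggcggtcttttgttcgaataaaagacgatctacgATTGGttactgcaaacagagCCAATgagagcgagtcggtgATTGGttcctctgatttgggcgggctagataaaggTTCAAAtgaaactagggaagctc
Cdkn1a: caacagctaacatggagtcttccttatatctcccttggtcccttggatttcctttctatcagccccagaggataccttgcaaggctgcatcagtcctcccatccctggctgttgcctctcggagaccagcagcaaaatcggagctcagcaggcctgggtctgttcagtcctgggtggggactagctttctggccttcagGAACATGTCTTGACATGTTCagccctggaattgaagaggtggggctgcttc
Cdk4: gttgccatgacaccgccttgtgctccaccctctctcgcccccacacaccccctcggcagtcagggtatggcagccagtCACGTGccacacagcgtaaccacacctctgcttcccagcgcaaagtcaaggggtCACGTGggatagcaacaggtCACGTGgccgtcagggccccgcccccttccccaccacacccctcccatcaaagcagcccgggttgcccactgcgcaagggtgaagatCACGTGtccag

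The Mki67 window held 2 CHR and 3 CCAAT matches and the Top2a window 2 and 6. The CHR and CCAAT box are bound in many genes of late cell cycle by the MuvB complexes and by NF-Y. A CHR match occurred in 16.0% of 32851 windows of the same length and a CCAAT match in 33.9%. The window of the first Cdkn1a start held 1 p53 site, from 51 to 32 bases before that start. The site was a pair of decamers with no spacer and at most 1 mismatch outside their cores, and 0.0578% of windows (19) held one. The window of the second Cdkn1a start (chr17:29093519-29093768, plus strand) held no match to any motif searched. Cdk4 held 4 E-box matches, against 6.02% of windows with any. In Cdk6 there were 1 E-box and 1 match to the E2F-like letters TTTNNCGC, which 4.28% of windows held. Cdkn1b held 2 CCAAT matches and the second Ccnd3 start 1. The E-box and p53 motifs were chosen after these sequences were seen, and a match is a description of letters, not of binding.

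**Figure D1:**
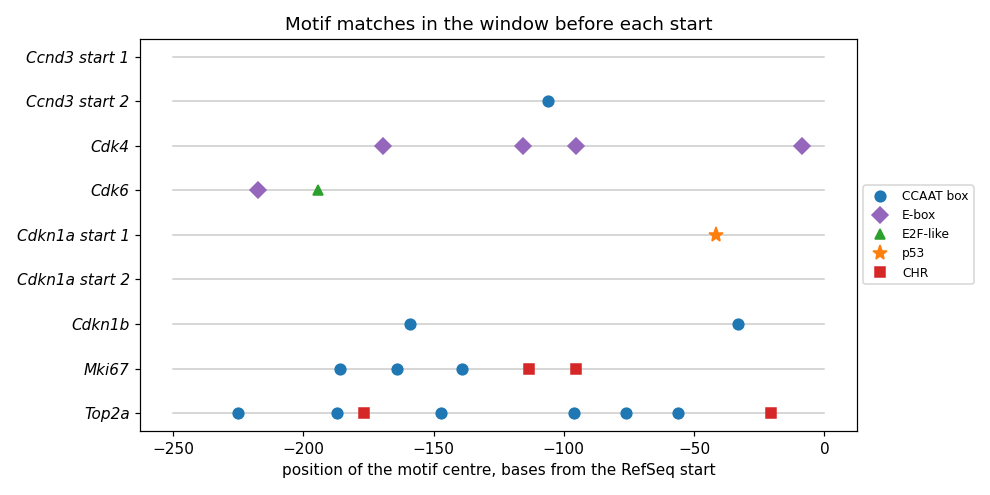
Matches to 5 motifs in the 250 bases before each RefSeq start of the cell-cycle genes, plotted by distance from the start in bases, with one row per start. Matches in Mki67 and Top2a are to the CHR and CCAAT box, those in Cdk4 to the E-box, and the match in Cdkn1a to the p53 site.

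Library totals ran from 1510020 to 5746239 counts (median 3095162). The defining microglial genes P2ry12 and Tmem119 were present in every library, while the lymphocyte genes Cd3g and Nkg7 were at 0 in all 37. The summed level of 8 microglial markers was 15096 to 18359 CPM after saline and 6721 to 14222 CPM after LPS. That of 6 monocyte markers was 2.63 to 17.2 CPM after saline and 10.7 to 633 CPM after LPS, and that of 6 neutrophil markers 0 to 96.1 and 3.12 to 135 CPM. Fn1 was by its median the most abundant monocyte marker after LPS (1.25 CPM after saline and 129 after LPS; the other 5 had medians of 0.858 to 2.95 CPM after LPS), while Ccr2 stood lower after LPS (6.37 and 1.83 CPM). Mitochondrial ribosomal RNA took 9.70% to 13.7% of counts after saline and 6.14% to 19.3% after LPS, with no overlap in MIA:CON and CON:PLX, and its part in the results was not tested. In such bulk samples, fewer cells of a type and less RNA per cell cannot be told apart. MIA:CON LPS replicate 6 differed by little more than counting error from a library whose title says exclude (chi-square per degree of freedom 1.53, the lowest of 741 pairs; the next pair had 2.42). Without replicate 6, the MIA:CON changes were 2.95 for Ccnd2, 3.49 for Cdkn1a, 0.71 for Cdk6, -0.56 for Cdkn1b and -0.27 for Mki67 on the log2 scale, and no call of the 9 genes differed. The counting kept no strand. The annotated spans, introns included, of Ccnd1 (LTO1), Ccnd2, Ccnd3 (Bysl), Cdk4 (Tspan31), Cdk6, Cdkn1a, Mki67 and Top2a each overlap another annotated gene. Overlap of exons was not examined, and reads from any shared exon could not be told apart.

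Ccnd2, the D-type cyclin that was nearly silent after saline, was the one that stood higher after LPS in every arm. In CON:CON saline its levels were 0, 1.65, 1.87 and 1.26 CPM (0, 5, 6 and 5 counts), and in CON:CON LPS 40.7, 12.4, 9.98 and 18.4 CPM. The lowest LPS library lay above the highest saline one. MIA:CON saline libraries held 3.61, 0.439, 2.26 and 0.955 CPM and the 6 LPS libraries 6.18 to 18.4 CPM (median 14.7). In CON:PLX the saline values were 0.799, 4.64, 0.447 and 2.60 CPM, and the LPS values 9.27 to 54.2 CPM (median 25.4). MIA:PLX saline libraries held 0.841, 2.86 and 1.25 CPM and LPS libraries 9.02 to 22.0 CPM (median 17.8). No LPS library of any arm fell within the saline range of 0 to 4.64 CPM. The fitted log2 differences were 4.12 ± 0.70 (SE) in CON:CON, 2.79 ± 0.64 in MIA:CON, 3.72 ± 0.61 in CON:PLX and 3.37 ± 0.74 in MIA:PLX, or 17.4-, 6.91-, 13.2- and 10.3-fold. The value was 3.54 in CON:CON without LPS replicate 1, 3.40 in MIA:CON without saline replicate 1 and 4.53 in CON:PLX without saline replicate 2. In MIA:PLX it was 2.65 with both libraries marked for exclusion included.

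Ccnd1 was the most abundant D-type cyclin and did not separate by injection. Saline libraries held 112 to 197 CPM (median 131, n = 15) and LPS libraries 30.5 to 353 CPM (median 170, n = 22), so the LPS range enclosed the saline range. In CON:CON the saline values were 197, 189, 122 and 115 CPM and the LPS values 30.5, 325, 134 and 210 CPM. MIA:CON saline libraries stood at 172, 153, 131 and 131 CPM, and LPS libraries at 37.3 to 320 CPM (median 174). In CON:PLX they stood at 121, 162, 116 and 112 CPM and at 59.7 to 353 CPM (median 194), and in MIA:PLX at 147, 115 and 169 CPM and at 103 to 220 CPM (median 157). Libraries spread widely within the LPS groups, with a coefficient of variation of 71.0% in CON:CON, 52.3% in MIA:CON, 49.4% in CON:PLX and 25.3% in MIA:PLX. Log2 differences were 0.17 ± 0.47, 0.33 ± 0.43, 0.63 ± 0.43 and 0.13 ± 0.47 (SE), in the order CON:CON, MIA:CON, CON:PLX and MIA:PLX, which is kept below wherever 4 values follow each other. The first turned to -0.33 without CON:CON LPS replicate 2.

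Ccnd3 stood at similar levels after both injections. Saline libraries held 29.7 to 83.7 CPM (median 52.7) and LPS libraries 14.6 to 81.7 CPM (median 51.2). CON:CON saline libraries stood at 32.3, 35.6, 83.4 and 54.3 CPM and LPS libraries at 32.9, 33.8, 68.8 and 47.6 CPM. The log2 differences of -0.17 ± 0.33, -0.04 ± 0.31, -0.50 ± 0.30 and 0.48 ± 0.34 (SE) were of both signs, and the first 2 changed sign when single libraries were left out.

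Per kilobase of exon, Ccnd1 made up most of the D-type cyclin level in every saline group: 83.6% ± 9.14 (SD, n = 4) in CON:CON, 83.6% ± 2.07 (n = 4) in MIA:CON, 76.7% ± 4.40 (n = 4) in CON:PLX and 85.6% ± 5.63 (n = 3) in MIA:PLX. Ccnd3 supplied nearly all of the rest, from 13.9% in MIA:PLX to 22.7% in CON:PLX. Ccnd2 took 0.348%, 0.505%, 0.599% and 0.525% after saline and 9.52% ± 13.5 (n = 4), 4.76% ± 5.27 (n = 6), 8.46% ± 10.3 (n = 6) and 4.27% ± 1.20 (n = 6) after LPS. Its mean share after LPS was raised by 1 library in 3 of the arms: replicate 1 of CON:CON at 29.7%, of CON:PLX at 28.7% and of MIA:CON at 15.4%. The other LPS libraries of these arms held 1.78% to 3.76%, 1.67% to 8.88% and 1.555% to 3.37%. The highest saline shares there were 0.559%, 1.17% and 0.896%. The 3 cyclins together summed to 39.0 ± 7.07 CPM per kilobase in CON:CON saline and to 44.5 ± 25.1 in CON:CON LPS (SD, n = 4 each).

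These replicate 1 libraries stood apart in more than one gene, a pattern noted after the values were seen. They had the lowest Ccnd1 of their LPS group (30.5, 59.7 and 37.3 CPM in CON:CON, CON:PLX and MIA:CON) together with the highest Ccnd2 (40.7, 54.2 and 18.4 CPM) and the highest Mki67 (13.1, 11.6 and 20.1 CPM). Their monocyte marker sums, in which Fn1 is the most abundant gene by its median after LPS, were also the lowest of their group, at 18.5, 40.9 and 10.7 CPM, and the part of other cells in the pattern was not tested. Their microglial marker sums were the lowest of the group in CON:PLX (6830 CPM) and MIA:CON (8150.5 CPM). In CON:CON replicate 1 that sum was 7010 CPM, and replicate 4 was lower at 6721 CPM. MIA:PLX LPS replicate 1 did not share the pattern of the 3 genes, with 169 CPM of Ccnd1, 21.0 of Ccnd2 and 7.75 of Mki67. Its monocyte marker sum was nevertheless the lowest of its group as well, at 109 CPM.

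**Figure D2:**
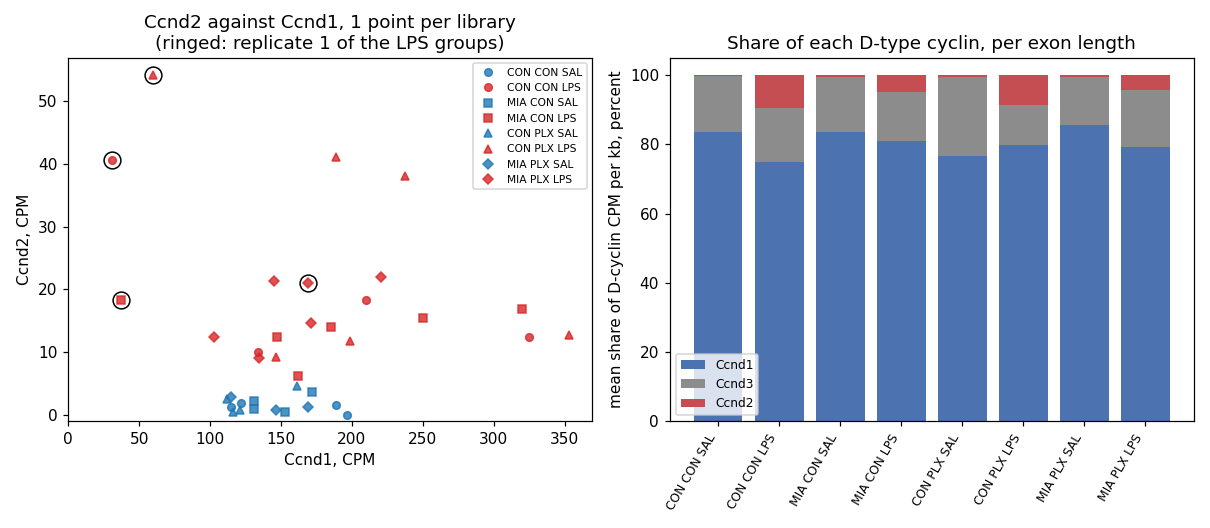
Left, Ccnd2 against Ccnd1 in CPM, with 1 point per library, a marker shape per arm, blue for saline, red for LPS and a ring around replicate 1 of each LPS group; right, mean share of each D-type cyclin in their summed CPM per kilobase of exon, by group. The ringed libraries of CON:CON, CON:PLX and MIA:CON lie at low Ccnd1 (30.5 to 59.7 CPM), and Ccnd1 takes the largest share in all groups.

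Of the partner kinases, Cdk4 stood at similar levels after both injections, with a coefficient of variation of up to 22.8% within a group (CON:PLX LPS). Its saline libraries held 31.1 to 48.9 CPM (median 40.0) and its LPS libraries 28.6 to 69.9 CPM (median 44.0). In CON:PLX the saline values were 45.1, 37.6, 32.8 and 31.1 CPM and the LPS values 35.7 to 69.9 CPM (median 50.1), with overlap. The log2 differences were 0.07 ± 0.18, 0.05 ± 0.16, 0.49 ± 0.16 and -0.03 ± 0.18 (SE). The CON:PLX value passed the call threshold and lost the call in 7 of 18 alternatives. It was 0.24 and not called with totals as deposited in place of TMM scaling, 0.37 with totals without mitochondrial genes, 0.49 without the filter or in a fit of only the groups compared, 0.39 without CON:PLX LPS replicate 2, and 0.44 and 0.43 without CON:PLX saline replicate 3 or 4. The values of the other arms changed sign with the scaling or with 1 library left out.

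Cdk6, the more abundant of the 2 kinases, tended to stand higher after LPS with wide overlap. Saline libraries held 176 to 292 CPM (median 235) and LPS libraries 211 to 564 CPM (median 282). In MIA:CON the saline values were 200, 176, 272 and 247 CPM and the LPS values 229 to 489 CPM (median 352). Their ranges overlapped. The log2 differences were 0.39 ± 0.24, 0.64 ± 0.22, 0.12 ± 0.22 and 0.48 ± 0.25 (SE). The MIA:CON value was past the call threshold and was lost in 9 of 18 alternative settings, at 0.43 to 0.62. Per kilobase of exon, Cdk6 stood at 24.9 ± 7.14 CPM in MIA:CON LPS and Cdk4 at 13.3 ± 1.86 (SD, n = 6 each).

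Cdkn1a, which encodes p21, stood several-fold above saline in each arm, with no overlap of libraries in any. In CON:CON the saline values were 121, 96.8, 69.4 and 98.2 CPM and the LPS values 740, 512, 396 and 1113 CPM. MIA:CON saline libraries held 100.4, 85.6, 93.3 and 76.4 CPM and LPS libraries 389 to 1679 CPM (median 644). In CON:PLX the saline values were 57.5, 65.4, 95.6 and 82.1 CPM and the LPS values 253 to 822 CPM (median 564). MIA:PLX saline libraries held 92.7, 95.0 and 97.8 CPM and LPS libraries 263 to 2154 CPM (median 869). Every LPS library was above the highest saline value of 121 CPM, and the LPS libraries themselves differed by 8.50-fold. Log2 differences were 2.84 ± 0.51, 3.35 ± 0.50, 2.80 ± 0.49 and 3.36 ± 0.57 (SE), or 7.16-, 10.2-, 6.95- and 10.2-fold. With both marked libraries included the MIA:PLX value was 2.57.

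Cdkn1b, which encodes p27, stood somewhat lower after LPS. Saline libraries held 52.5 to 84.6 CPM (median 69.3) and LPS libraries 22.2 to 95.6 CPM (median 52.6). In CON:CON the saline values were 68.0, 84.6, 65.0 and 75.0 CPM and the LPS values 31.3, 34.2, 46.8 and 62.8 CPM. These did not overlap, while those of the other arms did. The log2 differences were -0.74 ± 0.30, -0.42 ± 0.27, -0.43 ± 0.27 and -0.26 ± 0.30 (SE), and none was called. The CON:CON value was called in 4 of 17 alternatives, among them DESeq2 at -0.79.

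Mki67, at 3 to 151 counts a library, had a negative log2 difference after LPS in every arm, with the larger values in the PLX arms. In CON:CON the saline values were 16.8, 19.1, 11.3 and 14.6 CPM and the LPS values 13.1, 10.1, 8.19 and 3.81 CPM. MIA:CON saline libraries held 10.8, 10.97, 10.3 and 19.7 CPM and LPS libraries 6.93 to 20.1 CPM (median 10.1), again with overlap. In CON:PLX the saline values were 6.39, 33.4, 16.975 and 10.1 CPM and the LPS values 3.68 to 11.6 CPM (median 6.56). MIA:PLX saline libraries held 12.9, 12.5 and 19.4 CPM and LPS libraries 1.04 to 9.83 CPM (median 6.14), with no overlap. Log2 differences were -0.80 ± 0.44, -0.25 ± 0.41, -1.30 ± 0.40 and -1.45 ± 0.46 (SE). The CON:PLX value rested on saline replicate 2, at -0.72 and not called without it. That library also held 96.1 CPM of neutrophil markers against 0 to 3.24 in the rest of its group. Its erythroid (red blood cell) markers summed to 121 CPM against 1.20 to 20.8, and the part of other cells in the value was not tested. The MIA:PLX value was -1.23 and not called without MIA:PLX saline replicate 4.

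Top2a was close to the limit of detection, at 0 to 24 counts a library. Saline libraries held 1.32 to 6.56 CPM (median 4.37) and LPS libraries 0 to 5.06 CPM (median 2.70). In MIA:PLX the saline values were 4.48, 3.57 and 6.56 CPM and the LPS values 0.347 to 4.14 CPM (median 2.07). The groups overlapped in all arms. Log2 differences were -0.78 ± 0.55, -0.21 ± 0.51, -0.36 ± 0.48 and -1.23 ± 0.57 (SE).

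**Figure D3:**
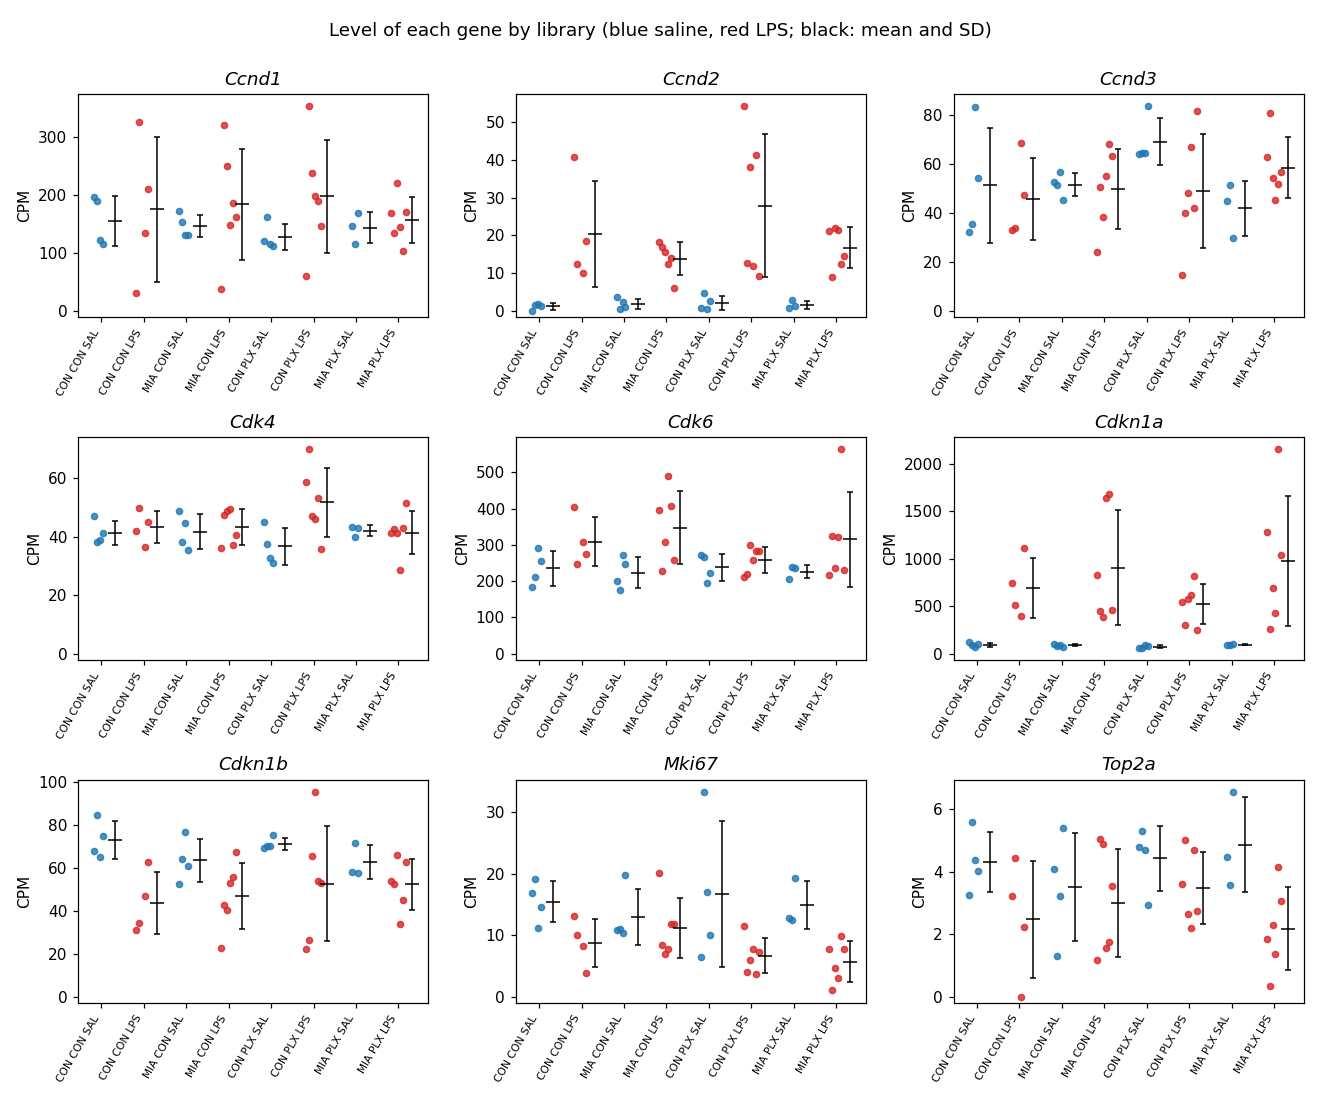
CPM of the 9 genes in each of the 37 libraries, by group, with points for libraries and bars for the mean ± SD; each panel has its own linear scale. Ccnd2 and Cdkn1a lie above their saline range in all LPS libraries, and the other 7 genes overlap over all libraries.

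The 9 genes differed in direction. The counts of genes past the call threshold (edgeR quasi-likelihood, Benjamini-Hochberg adjusted p under 0.05 over all genes) were 2 higher and 0 lower in CON:CON, where 13.7% of all genes were called higher and 9.84% lower. In MIA:CON 3 were higher and 0 lower, beside 14.5% and 10.9% of all genes. In CON:PLX 3 were higher and 1 lower, beside 17.5% and 14% of all genes, and in MIA:PLX 2 were higher and 1 lower, beside 11.8% and 10.4%. LPS and saline libraries did not overlap for 3, 2, 2 and 3 of the 9 genes, beside 24.6%, 17.4%, 27.8% and 25.4% of all genes. Nothing is read from these counts, since the genes were chosen on the same libraries. Their median log2 difference was 0.07, 0.05, 0.12 and 0.13.

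**Figure D4:**
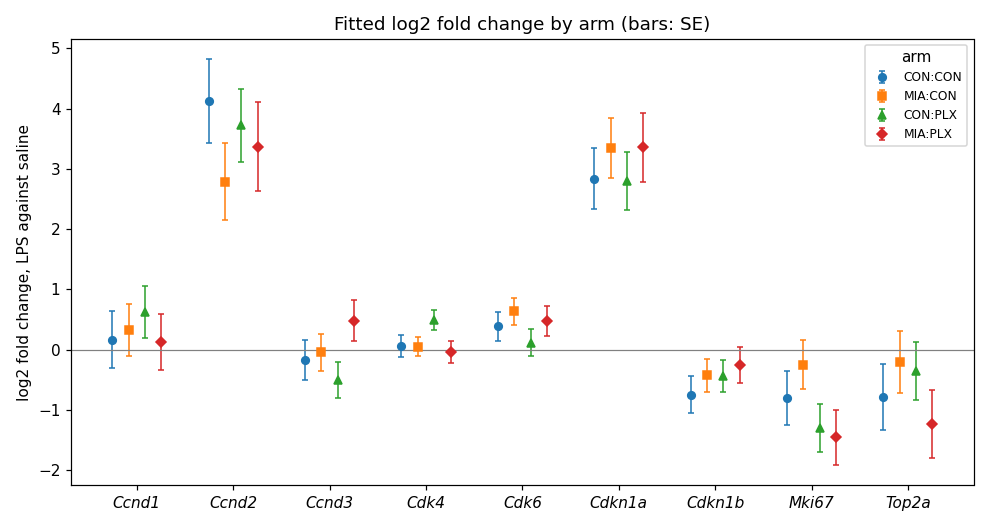
Fitted log2 difference, LPS minus saline, of the 9 genes in the 4 arms, with bars of 1 SE. Ccnd2 lies between 2.79 and 4.12 and Cdkn1a between 2.80 and 3.36, and the other 7 genes lie between -1.45 and 0.64.

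By prenatal term and by PLX, 0 of the 9 genes passed the call threshold in any contrast, which is again a description and not a test of them. These contrasts share libraries with each other and with the LPS contrasts, so each is given on its own. Over all genes 0% were called for MIA against CON after saline in either arm and after LPS without PLX, and 0.0149% (2 genes, Ppl and Sbsn, both higher, named after their values were seen) after LPS with PLX. For PLX against none, 0.00745% (1 gene, Nbea, lower, named likewise) were called after LPS in CON and 0% elsewhere, and 0% for either interaction of MIA and LPS. Cdkn1a stood 0.40 ± 0.43 higher on the log2 scale in MIA than in CON after LPS without PLX, and 0.90 ± 0.39 higher with PLX. Ccnd2 differed by -0.56 ± 0.49 and -0.73 ± 0.44 in the same comparisons. Ccnd3 after saline with PLX differed by -0.72 ± 0.37 between MIA and CON (-0.71 and called in a fit of only the groups compared), and Mki67 after LPS in MIA by -1.01 ± 0.41 between PLX and no PLX. The difference between the LPS responses of MIA and CON was -1.33 ± 0.97 for Ccnd2 and 0.51 ± 0.65 for Cdkn1a without PLX, and -0.35 ± 0.996 and 0.56 ± 0.65 with PLX (SE).

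Across the 37 libraries, the genes most like Ccnd2 in level were Lcn2 and Saa3 (Pearson r 0.951 and 0.933 of log2 CPM), both acute-phase genes. Those most like Cdkn1a were Stat3, a cytokine-activated transcription factor (0.957), and Gsto1 (0.953), and those most like Cdkn1b were N4bp2l1 (0.881) and Ccng2 (0.880). Ccnd1 was most like Alox5ap (0.884) and Gpx1 (0.877), Ccnd3 most like Acox3 (0.803) and Mxd4 (0.786), and Cdk6 most like Arnt (0.812) and Wdhd1 (0.802). The nearest genes were weaker for Cdk4 (Ssr2 0.734, Asna1 0.695), Mki67 (Tlr9 0.720, Ddx5 0.719) and Top2a (Dse 0.750, Kctd12 0.742). Between the 9 genes r was 0.82 for Cdkn1a and Ccnd2, 0.61 for Cdkn1b and Ccnd3, 0.43 for Mki67 and Top2a, and -0.04 for Ccnd1 and Ccnd2. The 37 points share injection, sort and library preparation, so these are descriptions of common pattern over the same libraries.

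Other genes of the cell cycle were tested in 8 lists of 136 genes, 102 of which passed the filter. The lists were drawn up with results of these data known. In CON:CON 15 rose and 6 fell after LPS, with a median log2 change of 0.16 beside 0.06 over all genes. In MIA:CON 17 rose and 8 fell (0.19 beside 0.03), in CON:PLX 20 and 10 (0.15 beside 0.03), and in MIA:PLX 15 and 8 (0.12 beside 0.04). Of all genes, 13.7%, 14.5%, 17.5% and 11.8% were called higher and 9.84%, 10.9%, 14% and 10.4% lower, in the order CON:CON, MIA:CON, CON:PLX and MIA:PLX. Most of the genes that mark division itself could not be tested: 20 of 31 mitosis genes fell below the filter, among them Cdk1 and Ccnb1 with at most 6 counts in any library, Plk1 with at most 9, and Aurka with at most 13.

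Among regulators of G1 and S phase, Myc, a transcription factor that drives growth, rose in all arms with no overlap of libraries. It stood at 31.6 to 65.4 CPM after saline and 70.0 to 226 CPM after LPS, and its log2 change was 1.27 ± 0.27 (adjusted p 0.000537 by edgeR), 1.44 ± 0.25 (7.64e-05), 1.75 ± 0.25 (2.02e-06) and 1.53 ± 0.28 (0.000113). It was the 1 of 7 G1/S genes tested that rose in each arm, and in MIA:CON the phosphatase gene Cdc25a fell by 0.76. Called in no arm were Cdk7 (0.34, 0.13, 0.004 and -0.10), Ccnh (-0.31, -0.51, 0.08 and -0.53) and Ccne2 (0.05, -0.04, -0.03 and -0.32). Of the INK4 and other CDK inhibitors 3 of 6 were tested. Cdkn2d, which encodes the p19 inhibitor of CDK4 and CDK6, rose by 1.74 ± 0.50 (adjusted p 0.00934 by edgeR), 2.10 ± 0.47 (0.00121), 1.99 ± 0.46 (0.00107) and 2.37 ± 0.53 (0.0011), from 0.312 to 3.95 CPM after saline to 3.52 to 33.1 CPM after LPS. In a fit of only the groups compared the CON:CON change of Cdkn2d was 1.73 and not called. Cdkn1c, which encodes p57, fell by 2.91 in CON:CON (adjusted p 0.000531 by edgeR), from 4.37 to 7.25 CPM to 0.469 to 1.34 CPM, and was called in both PLX arms (-1.51 and -1.496) but not in MIA:CON (-0.86). The CON:PLX call of Cdkn1c was lost without CON:PLX saline replicate 2 (-1.38), and its MIA:PLX call in 10 alternatives, among them the absence of any 1 of the 3 saline libraries (-1.32 to -1.61) or of LPS replicate 1, 3, 5 or 6 (-1.33 to -1.53). Cdkn2c was not called in any arm (-0.90, 1.49, -0.07 and 0.04).

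Among p53 targets and growth arrest genes, 3, 4, 3 and 3 of 18 rose and 1, 1, 2 and 0 fell. Beside them 13.7%, 14.5%, 17.5% and 11.8% of all genes rose and 9.84%, 10.9%, 14% and 10.4% fell. Aen, a nuclease of apoptosis, rose by 1.23, 0.97, 1.52 and 1.66 (adjusted p 0.00079, 0.00522, 1.52e-05 and 7.22e-05 by edgeR). Ccng2, an atypical cyclin found in growth-arrested cells, fell in CON:CON, MIA:CON and CON:PLX by 1.35, 1.30 and 1.25 (adjusted p 0.00867, 0.00502 and 0.00393) and was at -0.70 in MIA:PLX, not called. In CON:CON its libraries went from 97.2 to 117 CPM after saline to 24.1 to 66.0 CPM after LPS. Bax, a pro-apoptotic protein of mitochondria, rose by 0.85, 0.91 and 0.72 and was at 0.29 in MIA:PLX, not called. Its CON:CON call was lost in 4 alternatives, among them the absence of CON:CON LPS replicate 1 (0.75) or 2 (0.71). The CON:PLX call of Bax was lost in 5, among them the absence of CON:PLX LPS replicate 1 (0.60) or saline replicate 1, 2 or 3 (0.68 to 0.69). The remaining calls in this list were Btg1, an antiproliferative gene (0.85 in CON:CON and 1.01 in MIA:PLX), Trp53inp1 (2.35 in MIA:CON and 2.33 in MIA:PLX), Gadd45b (1.98 in MIA:CON), Sesn2 (0.94 in CON:PLX) and, lower, the forkhead factor gene Foxo1 (-0.59 in CON:PLX). Sesn1 was called in no arm (0.09, 0.85, -0.59 and 0.44).

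Replication licensing and DNA synthesis genes rose in 4, 3, 6 and 3 of 17 and fell in 0, 1, 0 and 0. Beside these and the mitosis genes below, 13.7%, 14.5%, 17.5% and 11.8% of all genes rose and 9.84%, 10.9%, 14% and 10.4% fell. Mcm6, a subunit of the replicative helicase, rose in CON:CON by 1.25 (adjusted p 0.00401 by edgeR), CON:PLX by 1.34 (0.000586) and MIA:PLX by 1.04 (0.0272), with 5.84 to 9.06 CPM after saline and 13.9 to 28.1 CPM after LPS in CON:CON. Mcm4, another subunit, rose by 1.10, 0.82 and 0.96 in CON:CON, MIA:CON and CON:PLX. The MIA:PLX call of Mcm6 was lost in 6 alternatives, among them the absence of MIA:PLX LPS replicate 3 or 4 or saline replicate 2 or 3 (0.77 to 1.08). The MIA:CON call of Mcm4 was lost in 5, among them the absence of MIA:CON saline replicate 1, 2 or 3 (0.69 to 0.84). Pola1, the catalytic subunit of DNA polymerase alpha, rose by 0.996 in CON:CON. That call was lost in 7 alternatives, among them the absence of any 1 of its 4 saline libraries or LPS replicate 2 or 5 (0.87 to 1.04). Further calls were Prim1, a primase subunit (1.35 in CON:CON and 1.60 in CON:PLX), the licensing factor gene Cdt1 (1.26 in MIA:CON, 1.16 in CON:PLX and 2.04 in MIA:PLX), Pcna, the sliding clamp (0.73, 0.84 and 0.71 in the same arms), and Gins1 (1.52 in CON:PLX). Gins2 was called in no arm (0.03, 0.40, 0.29 and 0.16). Of 11 mitosis genes tested, 0, 1, 0 and 0 rose and 0, 0, 1 and 1 fell. The median log2 change of this list was 0.34, 0.21, 0.27 and 0.30. Bub1b was at 1.89, 1.58, 0.55 and 1.16 and Mad2l1 at -1.30, -0.22, -0.89 and -0.35, and neither was called in any arm. Cenpf, a kinetochore protein, fell by 1.75 in CON:PLX (adjusted p 0.00885 by edgeR) and by 3.73 in MIA:PLX (4.58e-05), where it went from 3.93 to 20.5 CPM after saline to 0 to 2.76 CPM after LPS. It was at -1.62 in CON:CON (adjusted p 0.0589) and -0.71 in MIA:CON, neither called. Its CON:PLX call was lost without CON:PLX saline replicate 1 (-1.40). Foxm1, a driver of mitotic transcription, rose by 1.72 in MIA:CON (adjusted p 0.00458 by edgeR) and was at -0.08 in CON:CON, -0.64 in CON:PLX and -0.35 in MIA:PLX, not called.

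Transcriptional and atypical cyclins and CDKs moved in both directions, with 5 of 22 higher in each arm and 3, 4, 3 and 3 lower. Beside this list and the 2 below, 13.7%, 14.5%, 17.5% and 11.8% of all genes rose and 9.84%, 10.9%, 14% and 10.4% fell. Cdk5r1, the activator of CDK5, fell by 1.27, 0.93, 1.10 and 1.46 (adjusted p 0.000972, 0.00617, 0.000793 and 0.00016 by edgeR), and Ccni fell in all arms by 1.02, 0.79, 0.81 and 0.75. Ccni was not called in CON:CON with both marked libraries included (-0.64), in MIA:CON without saline replicate 2 (-0.63) or in MIA:PLX without saline replicate 2 (-0.73) or 4 (-0.67). Ccnl1, a cyclin linked to RNA splicing, rose by 1.15, 0.97, 0.71 and 0.89, and its calls in the PLX arms were lost in 6 and 7 alternatives (0.62 to 0.71 and 0.63 to 0.87). Also called were Cdk19, a Mediator kinase (-1.35, -1.26, -1.29 and -1.10), and Cdk11b (0.82, 0.59, 0.51 and 0.67). Calls in some of the arms were made for Ccnj (1.22 to 1.43), Ccnl2 (0.79 to 0.97), Cdk16 (0.50 to 0.86), Ccnc (0.48), Cdk14 (1.17), Cdk18 (1.40) and Cdk10 (-1.36). Cdk8 was called in no arm (0.02, 0.30, -0.17 and 0.17). In the retinoblastoma and E2F family 1, 1, 3 and 1 of 15 rose and 1, 1, 2 and 3 fell. Lin54, a subunit of MuvB, rose in CON:CON, MIA:CON and MIA:PLX by 0.77, 0.75 and 0.79, and Tfdp1, a partner of E2F factors, in CON:PLX by 0.88 (adjusted p 0.000971 by edgeR). The CON:CON call of Lin54 was lost without saline replicate 1 (0.65). Its MIA:PLX call was lost in 7 alternatives, among them the absence of LPS replicate 5 or any 1 of the saline libraries (0.59 to 0.78). E2f3 fell in CON:CON (-0.95), CON:PLX (-0.76) and MIA:PLX (-0.99). Its calls were lost in 8 alternatives in CON:CON, 9 in CON:PLX and 3 in MIA:PLX. Leaving out LPS replicate 1, 4 or 5 or saline replicate 2 or 3 was among them in CON:CON (-0.76 to -0.93). So was leaving out any 1 of 7 libraries in CON:PLX (-0.66 to -0.79) and saline replicate 3 or 4 in MIA:PLX (-0.97 and -0.92). Calls were also made for Rb1, the retinoblastoma gene itself (-0.64 in MIA:CON, -0.63 in CON:PLX and -0.71 in MIA:PLX), Rbl1 (-1.37 in MIA:PLX), E2f5 and E2f6 (1.49 and 0.90 in CON:PLX). E2f4 was called in no arm (-0.02, 0.11, 0.53 and -0.13). Cyclin D turnover genes gave 0, 1, 1 and 1 of 9 higher and 0, 0, 1 and 0 lower: Fbxo4 rose in MIA:CON (0.92) and MIA:PLX (0.94), and Cks1b rose (1.69) and Gsk3b fell (-0.35) in CON:PLX. The Cks1b call was lost in 7 alternatives, among them the absence of LPS replicate 2, 3, 4 or 5 or saline replicate 1 or 3 of its arm (1.43 to 1.66). Called in no arm were Skp2 (0.70, 0.51, 0.47 and 0.13), Ddb1 (0.34, 0.02, 0.36 and 0.13) and Fbxo31 (0.18, 0.31, 0.29 and 0.09). Genes in these lists that the rule did not pick, from Cdc25a to Gsk3b, were named after their values were seen, and apart from Btg1 their values under the alternatives are not given one by one. In the other contrasts 0 of the 102 genes were called by edgeR, while 0 to 13 had an unadjusted p under 0.05, and DESeq2 called 1, Btg1, for MIA against CON after LPS with PLX (0.99, adjusted p 0.0403, against 0.97 and 0.243 by edgeR). Monocyte markers rose beside these lists in 4, 4, 3 and 4 of 5 tested and fell in 0, 0, 1 and 1, neutrophil markers in 3, 5, 1 and 2 of 6, and microglial markers fell in 4, 3, 4 and 6 of 8, and their part in the results was not tested.

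**Figure D5:**
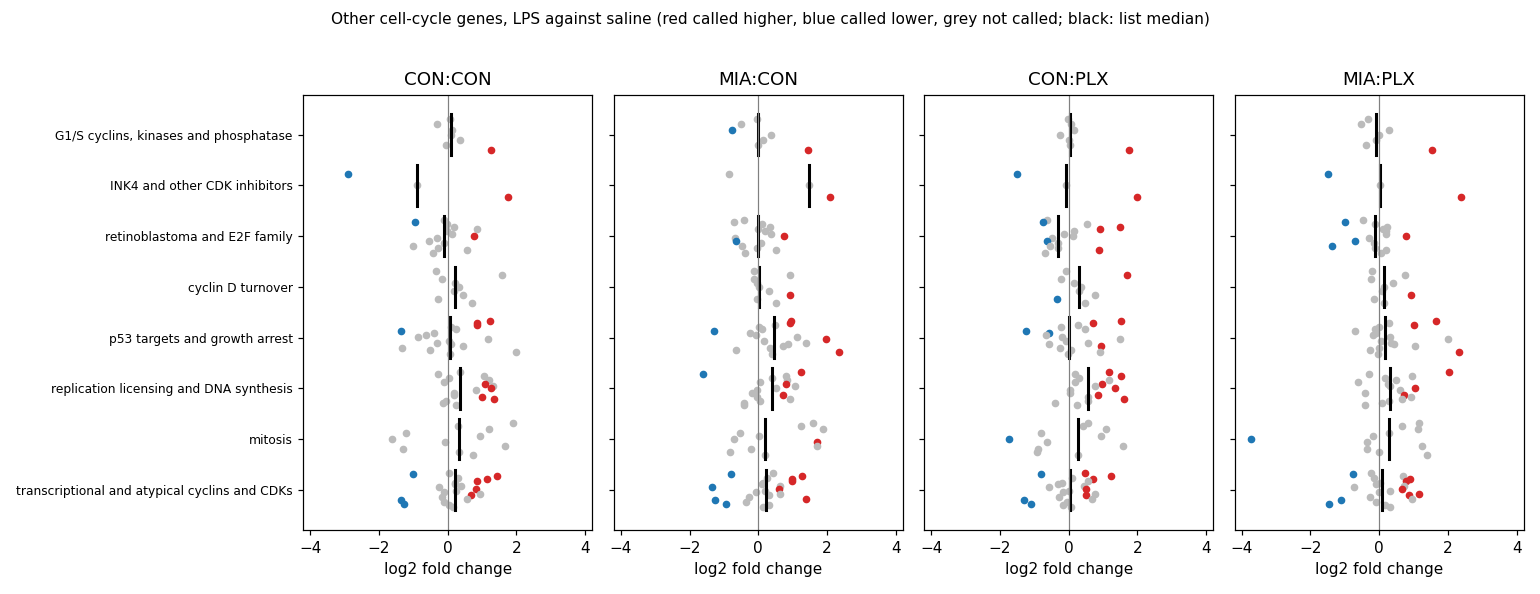
Fitted log2 change, LPS minus saline, of the 102 other cell-cycle genes tested, by list and arm, with red points for genes called higher, blue for called lower, grey for not called and black lines for list medians. The lists spread to both sides of 0, with Cenpf in MIA:PLX lowest at -3.73 and Cdkn2d in MIA:PLX highest at 2.37.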

How the data were processed

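RNA of sorted striatal microglia was amplified with the Ovation RNA-Seq kit, per the labels' protocols, without strand marking or removal of ribosomal RNA. Estimated counts of 39 libraries were deposited; 14.7% of its nonzero values were not whole, and they were rounded. STAR, RSEM and DESeq2 are named, without roles, per the submitters' processing notes, and the genome build was not given in the sources used here. Symbols and exon lengths came from GENCODE M21, which matched 55141 identifiers; genes without a symbol held 0.0132% of counts. CON_CON_LPS replicate 3 and MIA_PLX_SAL replicate 1, whose titles say exclude, were left out, leaving 37.

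Genes were kept by filterByExpr (minimum count 10, minimum total 15), and group means were fitted in 1 model by edgeR 4.0.16 quasi-likelihood with TMM in R 4.3.3. Adjusted p-values are Benjamini-Hochberg over 13420 genes, two-sided, called under 0.05. Nothing in the labels ties replicates to separate mice, so the p-values cover the spread among these libraries, which may be technical. CPM uses TMM-scaled totals; log2 CPM for likeness added a prior count of 2. Scripts were tested on simulated data.

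The 9 genes, the lists, the markers and the tests were chosen with earlier results of these data known. Named by rule were the 9 genes; from each list the 3 genes with the smallest p for LPS in CON:CON and the gene with the largest; and for each of the 9 the 2 genes most correlated with it, predicted genes left out. Alternatives were RLE factors, DESeq2 1.42.0, no filter, a fit of only the groups compared, a replicate block, both marked libraries included, and each library left out; for the 9 genes also totals without TMM and totals without mitochondrial genes. The values of 1 listed gene are not reported here.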

Additional observations from a re-analysis of the deposited data

Results flagged for a closer look

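Of 63 sets of libraries (a gene in a group of 4 to 6) checked for 1 library standing far from the rest of its group, 4 did, where chance gives about 1 in 20. Ccnd3 stood at 83.7 CPM in CON_PLX_SAL replicate 4, with 64.6 CPM the nearest of its group. Cdk6 stood at 564 CPM in MIA_PLX_LPS replicate 5, with 323 CPM the nearest. Mki67 stood at 19.7 CPM in MIA_CON_SAL replicate 4 (nearest 10.97) and at 20.1 CPM in MIA_CON_LPS replicate 1 (nearest 11.8).

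The 2 libraries whose titles say exclude enter no comparison, and 4 of their values lay above every saline library used, on a scaling of all 39 libraries. CON_CON_LPS replicate 3 held 83.7 CPM of Ccnd3 (highest saline library 83.4) and 127 CPM of Cdkn1a (highest saline 120). MIA_PLX_SAL replicate 1 held 5.61 CPM of Ccnd2 (highest saline 4.62) and 371 CPM of Cdkn1a. On the same scaling its near-identical library, MIA_CON_LPS replicate 6, held 6.15 and 461 CPM of these genes. In CON_CON_LPS replicate 3, Ccnd2 was at 1.24 CPM, inside the saline range.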

How the results depend on the processing

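As a description, the log2 difference after LPS ran from 2.54 to 4.53 for Ccnd2 and from 2.46 to 3.55 for Cdkn1a over the arms and alternatives run. Of 51 calls of other cell-cycle genes named by the rule, 31 held under each alternative and 0 changed sign. Without the filter on low counts 13 genes of the lists rose in CON:PLX and 8 in MIA:PLX (20 and 15 with it) (the cause was not tested), and with both marked libraries 3 fell in CON:CON (6 without them). Leaving out 1 library, genes that rose numbered 11 to 14 in CON:CON, 11 to 22 in MIA:CON, 10 to 24 in CON:PLX and 5 to 18 in MIA:PLX, and genes that fell 5 to 9, 5 to 10, 7 to 10 and 3 to 8. Counts moved by over 1.5 times without CON_PLX_SAL replicate 1 (10 rose), 2 or 3 (13 each), CON_PLX_LPS replicate 5 (13), MIA_CON_SAL replicate 1 or 3 (11 rose) and 2 or 4 (5 fell), MIA_PLX_SAL replicate 2, 3 or 4 (7, 5 and 6 rose; 5, 4 and 3 fell) and MIA_PLX_LPS replicate 5 (8 rose). In contrasts by MIA or PLX and their interactions the count was 0 throughout, except 1 by DESeq2 (Btg1). Over all genes, a fit of only the groups compared called 2228 genes for LPS in MIA:CON against 3403, and 136 for MIA against CON after saline with PLX against 0. DESeq2 called 14 genes for MIA against CON after LPS with PLX against 2, and 25 for PLX against none after LPS in MIA against 0 (16 without MIA_PLX_LPS replicate 2). The other all-gene counts of contrasts by MIA or PLX stayed between 0 and 10.

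Replicate numbers were not taken to pair the libraries, since the labels give them no shared source. Between groups, deviations from the group mean had a median correlation of 0.02 in pairs of the same number and -0.004 in pairs of other numbers. Values over 0.1 were held by 19 of 107 and 56 of 487 pairs, and the highest were 0.66 and 0.49. Of 37 libraries, 14 correlated best with their own number. Whether the numbers mark a shared batch was not tested. With the replicate number as a block, 14, 15, 20 and 14 genes rose and 9, 6, 12 and 7 fell, in the order CON:CON, MIA:CON, CON:PLX and MIA:PLX. A setting chosen after seeing the data left out the 2 LPS libraries lowest in immediate early genes and moved 0 of 18 values of the 9 genes; E2f3 lost its call in CON:CON (-0.84), and Pola1 in MIA:PLX (1.08) and Tfdp1 in CON:CON (0.66) gained one. Without TMM scaling the median log2 change of all genes was -0.04, -0.17, -0.21 and -0.10, against 0.06, 0.03, 0.03 and 0.04 with it, and Cdk6 in CON:PLX turned to -0.11. Depth limits Top2a and most mitosis genes.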
